A study of Mus musculus with 2 samples.

Results

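The widest regions of chromatin that TRα1, a receptor of thyroid hormone, occupied in brown adipocytes were 243 of the 5107 peaks (4.76%) in a single list of TR binding sites (TRBS). They were chosen by a measured value, the width of the peak, which had to be at least 840 bp on an autosome, with under 50% of the sequence soft-masked as repeats in GRCm38. In all, 254 autosomal TRBS were that wide, and 11 of them were left out for their repeat content. The tissue was brown adipose tissue of male C57BL/6J mice aged 8 to 12 weeks, whose brown adipocytes expressed TRα1 with a GS tag, a protein tag used for precipitation. All mice had been made hypothyroid by propylthiouracil in the food for 2 weeks, and thyroid hormone (T3 and T4) was then given by injection, in a treatment of 24 h. The promoter that restricted the tagged receptor to brown adipocytes was not given in the sources used here. The data were 1 ChIP library (chromatin immunoprecipitation followed by sequencing) and 1 input library of the same chromatin before precipitation, without replicates, so no difference is given with a replicate error and none was tested. All intervals below cover counting error only.

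TRα1 is a nuclear receptor that stays on chromatin with and without its hormone T3, usually as a heterodimer with the retinoid X receptor RXR. The preferred element is the DR4, a direct repeat of the half-site AGGTCA with 4 free bases in between. In brown fat, T3 is known to act on heat production, fat synthesis and fat burning. A peak is drawn around the pileup of sequenced fragments, so its width depends on the length of the fragments, on their number and on how many bound places lie close together. The width, the summit (the base with the highest pileup) and the fragments at the summit all come from the same pileup, and they are therefore given as a description. Beyond the limit on repeats, the DNA sequence was not used in the choice, nor were the genes or the distance to other peaks.

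The elements that carry the pattern described below are shown first, on GRCm38 (mm10), read 5′ to 3′ on the strand given, with the half-sites of each DR4 in capitals and the spacer and the flanking bases in lower case. Perfect DR4 elements, with no mismatch to AGGTCA in either half-site, lay in 5 of 243 wide TRBS (2.06%, 95% interval 0.882 to 4.73%). The share was 0.824% (0.601 to 1.13%) in the 4611 narrower autosomal TRBS below the same repeat limit, and the intervals overlap. Of the 5 elements, 4 are printed to show the complete element.
Lamb3 intron, chr1:193323997-193324026, plus strand: acgtgccAGGTCAggtcAGGTCAtcttgct
Prkce intron, chr17:86447641-86447670, minus strand: gccaagcAGGTCAcctgAGGTCAcctgagg
Rflna, intergenic, chr5:124942125-124942154, plus strand: gacccctAGGTCAcccgAGGTCAtggctga
Gse1 intron, chr8:120328813-120328842, plus strand: gggtctgAGGTCActgaAGGTCAactcatc
The next elements came from TRBS in which a second DR4 stood far from the summit, and each line gives the position of the element relative to the summit.
Eno1, 24 bp from the summit, chr4:150230940-150230969, minus strand: actacacAGGTCAaacaAGGTGCcagtgga
Eno1, 42 bp from the summit, chr4:150231006-150231035, minus strand: ctttcacAGGTCAtttgAGCTCAgcgggaa
Eno1, 672 bp from the summit, chr4:150231636-150231665, minus strand: agagaagGGGTCAgttcAGGTAAcccggct
Prss52, 34 bp from the summit, chr14:64100051-64100080, minus strand: gggagccAGGTCAaaggAGGACAtggcctg
Prss52, 595 bp from the summit, chr14:64100680-64100709, plus strand: acatttaAAGTTAactgAGGTCAaaagggt
The last pair shows stretches of 180 bases of tandem arrays of DR4 in the introns of Iqch and Ginm1, in which capitals mark the half-sites of each DR4 that lies wholly within the stretch.
Iqch array, chr9:63556334-63556513, minus strand: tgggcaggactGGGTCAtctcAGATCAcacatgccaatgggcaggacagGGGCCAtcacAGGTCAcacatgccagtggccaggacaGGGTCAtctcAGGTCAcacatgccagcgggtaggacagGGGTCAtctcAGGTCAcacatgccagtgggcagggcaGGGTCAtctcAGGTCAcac
Ginm1 array, chr10:7774396-7774575, minus strand: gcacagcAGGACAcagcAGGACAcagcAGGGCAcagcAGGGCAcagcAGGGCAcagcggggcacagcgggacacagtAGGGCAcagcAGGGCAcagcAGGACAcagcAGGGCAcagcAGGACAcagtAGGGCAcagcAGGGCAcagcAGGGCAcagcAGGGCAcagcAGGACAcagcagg

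The wide TRBS covered 262533 bp, or 10.8% of all bases covered by the list. Their median width was 1005 bp (840 to 2739 bp), against 424 bp for the whole list. A width of at least 1000 bp was reached by 123 of them and 1500 bp by 12. Just inside the limit stood the TRBS nearest to Tectb, Rflna and Ppp4r2, all 840 bp wide, and just outside stood those nearest to Intu, Irs2 and Ucp1, all 839 bp wide. The last of these, 2462 bp upstream of Ucp1, had 267 fragments at its summit, more than all but 1 of the wide TRBS. The border at 840 bp therefore runs through a continuous range of widths.

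The number of ChIP fragments at the summit, recovered as a whole number from the deposited fold and p-value, had a median of 38 in the wide TRBS (9 to 362) and of 17 in the narrower ones. Across the 4611 narrower TRBS, width and fragments had a Spearman correlation of 0.61, and across the 243 wide ones it was 0.13, both as descriptions of values read from the same pileup. The second is over a range cut on width, which lowers a correlation, so the values are not comparable. A group of 36 wide TRBS had at most 17 fragments, the median of the whole list. The lowest was the region 38486 bp from Xcl1, 1060 bp wide with 9 fragments (95% Poisson interval 4.12 to 17.1). The median background was 0.714 fragments on the scale of the ChIP library, and the median deposited fold was 19.9 (5.66 to 92.8).

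**Figure D1:**
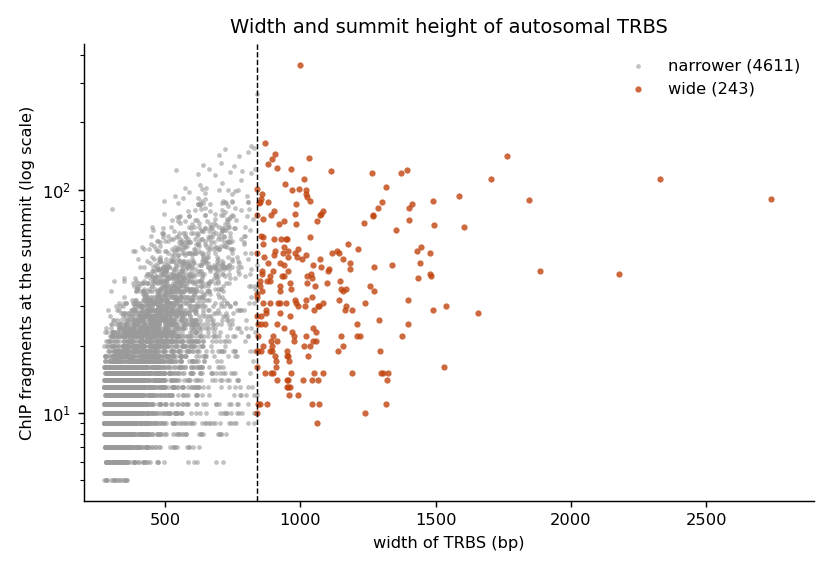
Width of each autosomal TRBS below the repeat limit (x axis, bp) against the ChIP fragments at its summit (y axis, log scale), with each point 1 TRBS, wide ones in orange-red and narrower ones in grey. The dashed line marks 840 bp, and the points spread from 5 to 267 fragments in the narrower TRBS and from 9 to 362 in the wide ones.

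For comparison, 3 groups of autosomal TRBS below the same repeat limit were used. They were all 4611 narrower TRBS, the 648 with a width of 600 to 839 bp, and the 572 narrower TRBS with at least 38 fragments, called strong narrower TRBS. The last group had a median of 49 fragments and a median width of 600 bp, values that its definition sets in part.

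The summit was off-centre in most wide TRBS. When each peak was divided into 3 equal parts, the summit fell in the middle one in 91 of 243 (37.4%, 95% Wilson interval 31.6 to 43.7%), compared with 96.2% of the strong narrower TRBS, 75.8% of those of 600 to 839 bp and 79.0% of all narrower ones. In 89 wide TRBS (36.6%) the summit lay in the outer 25% at either end of the peak, against 2 of 572 strong narrower TRBS. That share was 10.3% in those of 600 to 839 bp and 7.48% in all narrower ones. The summit was in the lower-coordinate part of the peak in 123 of 243 wide TRBS, so both sides were about equally frequent.

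The distance from the summit to the farther edge is called here the longer arm, and the distance to the nearer edge the shorter arm. The median longer arm was 723 bp in the wide TRBS and 338 bp in the strong narrower TRBS, whereas the median shorter arms were 308 bp and 257 bp. In the TRBS of 600 to 839 bp these medians were 405 bp and 274 bp. The longer arm was at least 2 times the shorter in 153 wide TRBS (63.0%, 56.7 to 68.8%) and in 22 strong narrower ones (3.85%). The same was true of 24.4% of those of 600 to 839 bp and of 21.3% of all narrower ones. The smallest peak of the list, 276 bp, was taken as the length of 1 fragment. In 208 wide TRBS (85.6%) the longer arm was over 552 bp, or 2 fragment lengths, and in 95 of the 243 the shorter arm was no longer than 1. Both arms were longer than 1 fragment length in 148. The extra width thus lay mostly on one side of the summit. Examples are the region 78496 bp from Ptpn1, a phosphatase that acts on the insulin receptor, with arms of 1948 and 380 bp, and the region in the intron of Mlxipl, the gene of the lipogenic factor ChREBP, with arms of 1162 and 316 bp.

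**Figure D2:**
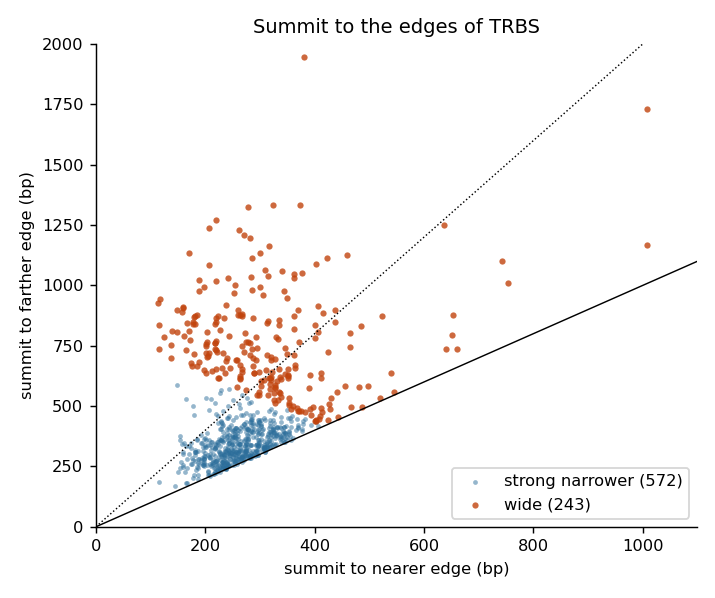
Distance from the summit to the nearer edge (x axis, bp) against the distance to the farther edge (y axis, bp), with each point 1 TRBS, for 243 wide TRBS (orange-red) and 572 strong narrower ones (blue). The solid line marks equal arms and the dotted line a farther edge 2 times as distant, and 153 of the wide TRBS lie on or above the dotted line against 22 of the strong narrower ones.

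A DR4 with at most 2 mismatches over the 12 half-site bases, on either strand, was present in 124 of 243 wide TRBS (51.0%, 44.8 to 57.2%), against 32.0% of all TRBS in the list. The share was 46.3% (42.3 to 50.4%) in the strong narrower TRBS and 43.4% in those of 600 to 839 bp, so the interval of the wide TRBS overlapped that of the strong ones. A wide peak also has more bases in which a match can fall. The wide TRBS held 217 elements, which was 0.827 per kb, compared with 0.848 per kb in all narrower TRBS and 1.00 per kb in the strong narrower ones. Of these elements, 5 had no mismatch, 27 had 1 and 185 had 2.

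With at most 3 mismatches 74.9% of wide TRBS held 2 or more DR4, but with at most 2 mismatches most had a single DR4 or none. There were 119 without a DR4, 88 with 1, 26 with 2 and 10 with 3 or more. At least 2 were found in 36 (14.8%, 10.9 to 19.8%), against 4.19% of all TRBS and 7.17% (5.33 to 9.58%) of the strong narrower ones. Overlapping matches count separately here, and in 30 of the 36 the outermost elements were at least 16 bp apart, so that they did not share bases. With at most 1 mismatch, 23 wide TRBS held a DR4 (9.47%, 6.39 to 13.8%), compared with 9.97% of the strong narrower TRBS, 11.1% of those of 600 to 839 bp and 7.18% of all narrower ones. With at most 3 mismatches, 231 did (95.1%, 91.6 to 97.2%), compared with 86.2% (83.1 to 88.8%) of the strong narrower and 72.6% of all narrower TRBS, shares that also follow the number of bases searched.

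In a window of fixed size, a DR4 lay within 100 bp of the summit in 79 of the 243 wide TRBS (32.5%, 26.9 to 38.6%). The share was 40.4% (36.4 to 44.5%) in the strong narrower TRBS, 34.6% in those of 600 to 839 bp and 27.4% in all narrower ones, and the first 2 intervals overlap. The nearest DR4 was a median of 48 bp from the summit in the 124 wide TRBS that had any, and 18 bp in the strong narrower ones, a distance that grows with the width searched. In 74 wide TRBS all DR4 lay within 1 fragment length of the summit, 20 had elements both within and beyond that distance, and 30 had them only beyond. Any distant DR4 was thus seen in 50 wide TRBS (20.6%), in 10 strong narrower ones (1.75%) and in 35 of those of 600 to 839 bp (5.40%). Since few bases of a narrow peak lie beyond 1 fragment length, these shares were also taken per kb.

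Without the 3 tandem arrays described below, the DR4 density was 2.40 per kb within 69 bp of the summit, 0.311 per kb from there to 276 bp, and 0.408 per kb beyond 276 bp. Windows as wide as each TRBS, placed 2 kb outside its edges and free of other peaks, held 0.137 per kb. The distant parts of the wide TRBS therefore held 2.97 times the flanking density (95% interval 2.03 to 4.33, from 54 elements). In the distant parts of the strong narrower TRBS, the ratio to their own flanks was 1.94 (0.965 to 3.58, from 12 elements). It was 2.91 (1.9602 to 4.2288) in those of 600 to 839 bp and 2.80 (2.097 to 3.680) in all narrower TRBS, and all these intervals overlap. The comparison groups kept any arrays they held, and with its 3 arrays the ratio of the wide TRBS was 3.46 (2.41 to 4.99). Single AGGTCA half-sites without mismatch, on either strand, gave 3.63 per kb at the summit, 1.59 per kb in the distant parts and 0.768 per kb in the flanks, with a ratio of 2.07 (1.74 to 2.47) for the distant parts. That ratio was 1.27 (0.934 to 1.70) in the strong narrower TRBS, 1.80 (1.495 to 2.163) in those of 600 to 839 bp and 1.83 (1.584 to 2.096) in all narrower TRBS, and the last 2 intervals overlap that of the wide TRBS. The differences between these ratios were not tested. Base composition moved with these values, since the GC content was 54.9% at the summit, 52.2% in the distant parts and 47.7% in the flanks. The soft-masked share moved with them too, at 5.46%, 11.5% and 24.8% in the same order, and the limit on repeats applied to the TRBS but not to the flanks. The part of either in the densities was not tested.

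Along the longer arm, half-sites fell from 2.75 per kb in the first 100 bp to 0.875 per kb between 200 and 300 bp. They were at 2.45 per kb between 600 and 700 bp (39 sites in 188 TRBS, 1.74 to 3.35), the highest of the distant steps. The step from 500 to 600 bp had 1.27 per kb (220 TRBS, 0.829 to 1.86). The step from 700 to 800 bp had 2.19 per kb (134 TRBS, 1.40 to 3.26). Both intervals overlap that of the highest step, and fewer TRBS reached the farther steps. DR4 elements followed a similar course, from 1.75 per kb in the first 100 bp through 0.167 per kb between 200 and 300 bp to 1.01 per kb between 800 and 900 bp, where only 7 elements were counted. In the strong narrower TRBS the arms ended before such distances.

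A peak formed by merging a pair of equal sites would have its other site as far from the farther edge as the summit is from the nearer edge. In 178 wide TRBS without an array this mirror position was more than 276 bp from the summit. Windows of 139 bp centred there held 37 half-sites, or 1.495 per kb, and windows midway between it and the summit held 19, or 0.768 per kb, which was the density of the flanks. The ratios to the flanks were 1.95 (1.35 to 2.73) at the mirror position and 0.999 (0.595 to 1.58) midway, with a GC content of 51.9% at both places. These intervals overlap and the difference was not tested. The density at the mirror position was also no higher than the 1.59 per kb of the distant parts as a whole. For DR4 the counts were 7 and 5. The pileup between the edges was not used here, so a second maximum within a TRBS could not be seen directly.

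**Figure D3:**
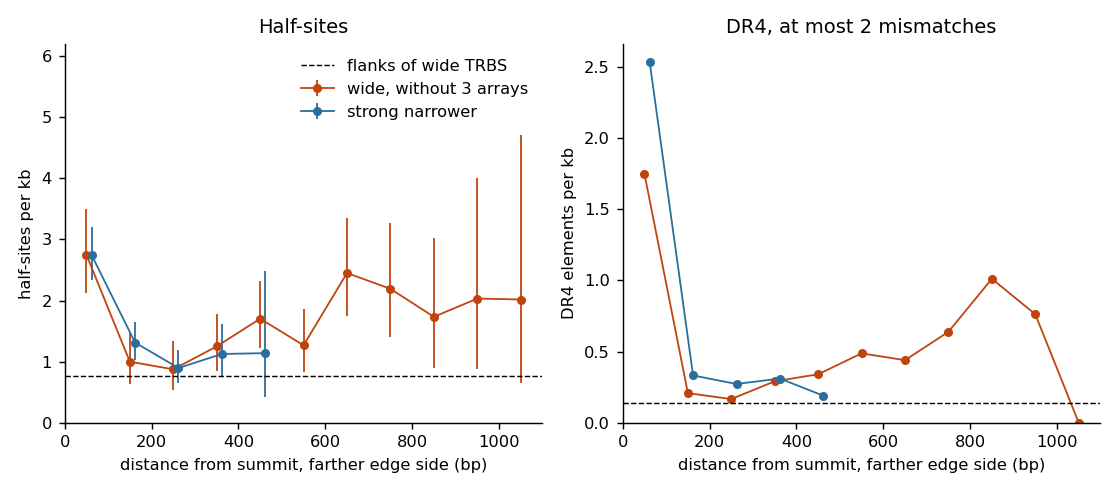
Density of AGGTCA half-sites (left) and of DR4 with at most 2 mismatches (right) per kb (y axes) in steps of 100 bp from the summit towards the farther edge (x axes), for 240 wide TRBS without arrays (orange-red) and 572 strong narrower ones (blue, moved slightly to the right). Bars are 95% Poisson intervals, the dashed line is the density in the flanks of the wide TRBS, and half-sites stand at 2.75 per kb in the first 100 bp, 0.875 per kb between 200 and 300 bp and 2.45 per kb between 600 and 700 bp.

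DR4 elements that spread over at least 276 bp occurred in 20 of 243 wide TRBS, including the arrays of Iqch and Ginm1. They occurred in 9 of 648 TRBS of 600 to 839 bp, 5 of 572 strong narrower and 17 of 4611 narrower TRBS. A wider peak has more room for such a spread, so these counts follow the width in part. In Eno1, which encodes a glycolytic enolase, 2 of the elements printed above stood on either side of the summit and another 672 bp away, in a TRBS of 1236 bp with 71 fragments, 5743 bp from the gene start. The TRBS nearest to Prss52, a serine protease gene, had 88 fragments and a second element 595 bp from the summit. Setd4, a methyltransferase gene, had elements 49 and 769 bp from the summit in an intronic TRBS of 1413 bp. An intronic TRBS of Slco4a1, an organic anion transporter gene of a family that carries thyroid hormone, had 118 fragments and elements at 50, 97 and 912 bp. The TRBS 66473 bp upstream of Id2, which encodes an inhibitor of basic helix-loop-helix factors, had elements 18 and 732 bp from the summit.

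In the far-only class, 30 wide TRBS had no DR4 within 276 bp of the summit, and their nearest element was a median of 609 bp away. The TRBS at the start of Esrrg, which encodes an orphan nuclear receptor of mitochondrial genes, had 76 fragments and its only DR4 433 bp from the summit. The intronic TRBS of Tbc1d1, a regulator of glucose transporter traffic, had 118 fragments and its DR4 761 bp away.

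**Figure D4:**
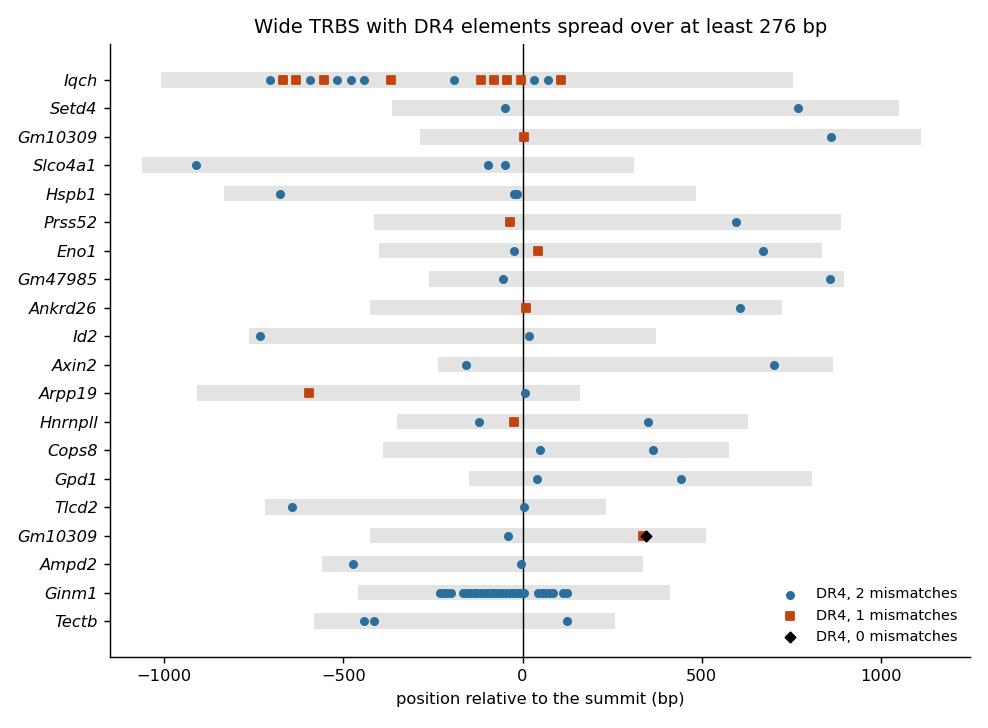
The 20 wide TRBS whose DR4 elements spread over at least 276 bp, drawn as grey bars aligned at the summit (x axis, bp), with the nearest protein-coding gene on the y axis and each DR4 as a symbol for its number of mismatches. In most of them 1 element lies near the summit and another towards the end of the longer arm, while Iqch and Ginm1 carry runs of 17 and 29 elements.

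At least 8 DR4 were packed in 3 wide TRBS, of 12 such TRBS in the whole list. The array in an intron of Ginm1 (chr10:7774249-7774618) held 29 elements, all with 2 mismatches, and 25 of the 28 steps between them were 10 bp, which is 1 half-site plus 1 spacer. At such a step, neighbouring elements shared a half-site. This TRBS had 162 fragments (138 to 189) and the highest fold of all wide TRBS, 92.8. The array in an intron of Iqch (chr9:63555712-63556539) held 17 elements, 9 of them with 1 mismatch, and 13 of its 16 steps were 37 or 38 bp. It had 142 fragments (120 to 167), the second highest fold, 88.9, and the summit stood within the array. In an intron of Matn2, 8 elements with a step mostly of 5 bp had 21 fragments and a fold of 10.96, and this array was wholly soft-masked as repeat, compared with 5.68% and 0% for the other two. The background at the summits of these TRBS was 0.756, 0.609 and 1.01 fragments.

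Of the 20 wide TRBS with the highest fold (58.2 to 92.8), 5 had no DR4 with at most 2 mismatches. All 5 held one with 3 mismatches, and the other 15 held one within the limit. The 5 without it lay in an intron of Ulk4 (139 fragments, 117 to 164), near Aarsd1 (111 fragments), Fgd2 (106), Pnpla5 (83) and upstream of Ucp1. The last of these had the most fragments of all wide TRBS, 362 (326 to 401), at a background of 4.57 fragments, which was also the highest. Others with a DR4 near the summit were the TRBS of Ptgds, a prostaglandin D2 synthase gene (100 fragments), and of Vegfa, a growth factor gene for blood vessels (125 fragments). Noct encodes nocturnin, a rhythmic enzyme, and its TRBS of 841 bp had 101 fragments and a DR4 73 bp from the summit. Near Cradd, an adaptor gene of cell death signalling, the TRBS had 121 fragments and its DR4 was 69 bp from the summit.

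Other TRBS were often near. No TRBS of the list lay nearer than 278 bp to another, so neighbours within 1 fragment length did not exist as separate entries. Another edge was found within 1 kb of 32 wide TRBS (13.2%, 9.48 to 18.0%), against 6.07% of all narrower and 8.04% (6.08 to 10.6%) of the strong narrower TRBS. At this distance the intervals of the wide and the strong TRBS overlapped. Within 5 kb the shares were 42.4% (36.3 to 48.7%), 20.3% and 24.5% (21.1 to 28.2%), without overlap. The neighbour within 1 kb had a median of 13.5 fragments, and in 24 of 32 cases the wide TRBS was the higher of the pair. No 2 wide TRBS lay within 1 kb of each other, and 12 pairs lay within 10 kb. At the other end, 116 wide TRBS (47.7%) had no other summit within 10 kb. The wide TRBS were therefore a mixture of isolated regions and members of denser groups.

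Most wide TRBS lay away from gene starts. The summit was intergenic in 117 (48.1%, 41.9 to 54.4%), compared with 36.8% of narrower and 40.9% (36.95 to 44.99%) of strong narrower TRBS, and intronic in 100. The rest were 13 in promoters, 6 in coding exons, 4 in 5′ UTRs and 3 in 3′ UTRs. A protein-coding TSS was within 30 kb of 146 wide TRBS (60.1%, 53.8 to 66.0%) and of 57.2% of narrower ones, and 264 genes were reached in this way. A TSS lay inside 14 wide TRBS (5.76%, against 4.88% of narrower TRBS). Of these 14 genes, 6 are given as examples chosen after their values were seen. They were Gapdh of glycolysis (21 fragments), Pfkfb4, which sets the level of a glycolysis activator (28), Pck1 of glycerol and glucose synthesis (12), Pdp2, a phosphatase that activates pyruvate dehydrogenase (54), and the respiratory chain and ATP synthase genes Cox5a (26) and Atp5g3 (88).

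One pair of wide TRBS could not be told apart. The regions nearest to Entpd4 and to its copy Entpd4b were 1257 and 1272 bp wide with 37 and 35 fragments, and all 31-base words of one also occurred in the other. No other pair of wide TRBS shared over 20% of such words.

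Of 178 genes in 12 lists, which covered functions of brown fat, genes named by the study and, for contrast, genes of muscle, blood vessel and immune cells, 22 (12.4%) had a wide TRBS within 30 kb, compared with 264 of 21951 protein-coding genes (1.203%). Among genes with any TRBS, the shares were 22 of 105 (20.95%) and 264 of 3653 (7.23%). The lists were drawn up with earlier results of these data known, and genes with many TRBS have more chances to hold a wide one, so these shares describe the lists only. Of the 264 genes, 173 (65.5%) had a further TRBS within 30 kb, against 27.4% of all genes with a TRBS.

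Among genes of fat synthesis, a wide TRBS was near 6 of 19, which were Thrsp, Scd1, Gpd1, Mlxipl, Gpam and Agpat2. Thrsp, a lipogenic regulator long known to respond to thyroid hormone, had 88 fragments at 2848 bp upstream. Scd1, which desaturates fatty acids, had 62 fragments at 8513 bp upstream, and neither region had a DR4. Gpam and Agpat2 act in the first steps of glycerolipid synthesis, and their TRBS had 19 and 42 fragments. Gpd1, which links glycolysis to glycerol phosphate, had a pair of wide TRBS. One lay 900 bp upstream with 51 fragments and no DR4, and the other 3825 bp upstream with 17 fragments and 2 DR4, in the 3′ UTR of the neighbour Smarcd1.

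Among 22 thermogenesis genes, 3 had a wide TRBS. Upstream of Ucp1, the uncoupling protein of brown fat, a TRBS of exactly 1000 bp lay 4514 bp from the TSS, between narrower ones with 86 and 267 fragments at 5849 and 2462 bp. Its edge was 396 bp from the nearest of these. Cox7a1, a respiratory chain subunit gene, had 50 fragments at 18929 bp downstream, in a region nearer to Capns1, and Esrrg had 76 fragments at 139 bp upstream. Of 15 fatty acid oxidation genes, Pdk4, a kinase that restrains glucose oxidation, had 50 fragments at 2522 bp upstream, and Ppara, the receptor gene that governs fat oxidation, had a pair with 31 and 15 fragments at 13989 and 10481 bp upstream. None of these 3 regions had a DR4.

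Of the 8 genes singled out by the study, Hr, Klf9 and Thra had a wide TRBS. Both TRBS within 30 kb of Klf9, a Krüppel-like factor gene known as a direct target of TR, were wide, and one of them was the widest of the 243 (2739 bp). They had 31 fragments at 9011 bp and 91 at 6281 bp upstream, and 1377 bp separated their edges. Hr, a corepressor gene, had 44 fragments and 1 DR4 at 22319 bp downstream, in a region nearer to Nudt18. In the intron of Thra, which encodes TRα1 itself, the wide TRBS had only 11 fragments (5.49 to 19.7) and no DR4. This TRBS was also within 30 kb of Nr1d1, the clock repressor gene on the opposite strand, which had another with 29 fragments at 1368 bp downstream.

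In the remaining lists, Cebpb, an early adipogenic factor gene, had a pair with 80 and 83 fragments at 7306 and 25635 bp downstream, both nearest to Tmem189, and Klf13 had 1 with 52 in its intron, nearer to the start of E030018B13Rik. Bhlhe40 of the clock had 47 fragments at 825 bp upstream. Plin4 and Plin5, neighbouring genes of lipid droplet coat proteins, shared a pair with 15 and 14 fragments. No gene of the list of 22 nuclear receptors and cofactors had a wide TRBS, and 10 had some TRBS, a number at which the overall share of 7.23% gives few. The receptor genes Thra, Ppara, Nr1d1 and Esrrg, which had one, stood in other lists. No wide TRBS was found near the 8 skeletal muscle genes or the 8 genes of blood vessel and immune cells, of which 2 and 0 had any TRBS, so these counts are near the share over all genes. In all, 20 genes had 2 wide TRBS, among them Klf9, Cebpb, Gpd1, Ppara, Nr1d1, Plin4 and Eno1.

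**Figure D5:**
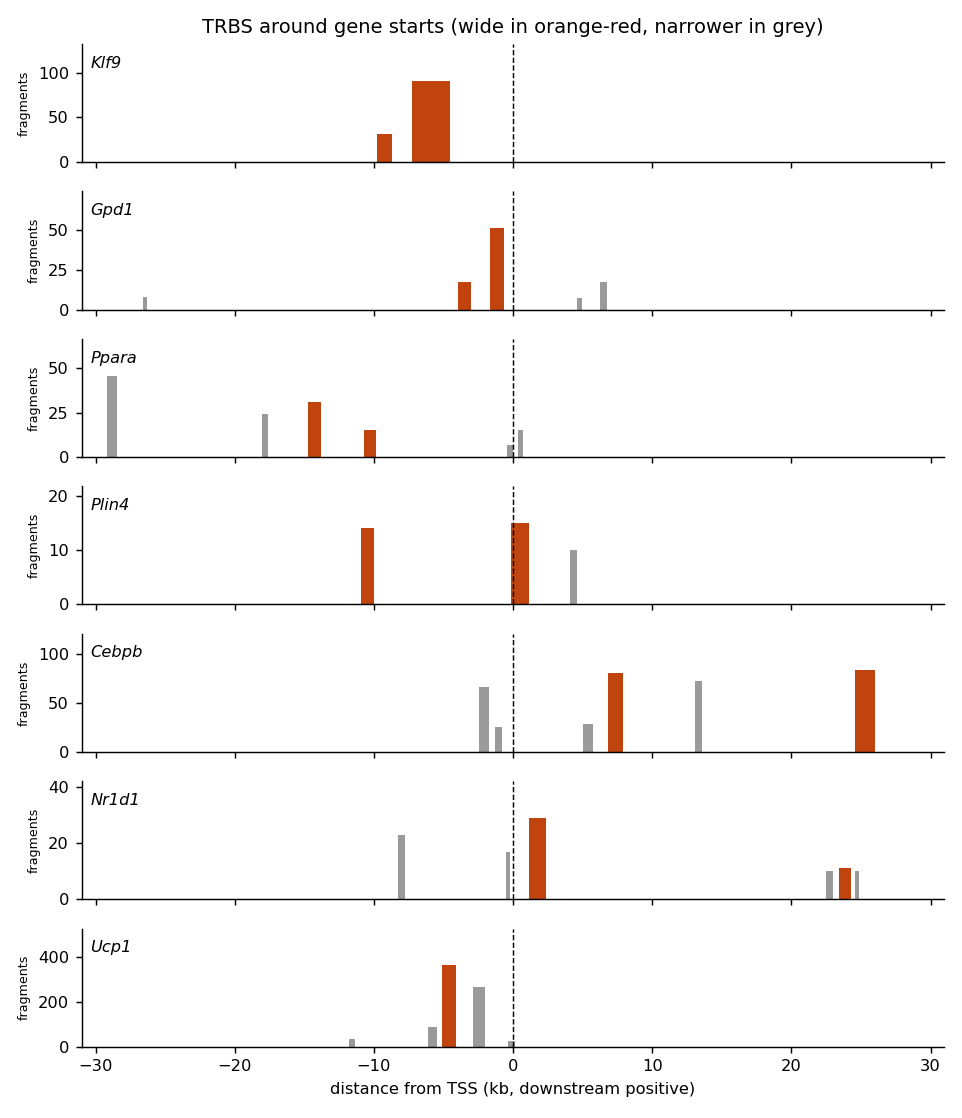
TRBS within 30 kb of the TSS of Ucp1 and of 6 listed genes with 2 wide TRBS (Plin5, which shares those of Plin4, is not drawn), with position relative to the TSS (x axis, kb, downstream positive) and fragments at the summit (y axes, a scale of its own for each gene). Each bar spans 1 TRBS, wide ones in orange-red and narrower ones in grey, and around Klf9 both bars are wide while Ucp1 has 1 wide bar of 362 fragments among 4 narrower ones.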

How the data were processed

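The deposited list held the peaks of 1 ChIP library called against 1 input library. Per the labels the reads were aligned to mm10 with Bowtie2 2.3.2.2, and the authors called peaks with MACS2 2.1.1.20160309.6. The deposited score is 10 times the −log10 of the q-value. The deposited fold is the ratio of ChIP pileup to input background, each with 1 added, and the −log10 of the p-value, as deposited, comes from a Poisson test. The study kept scores of at least 60, while here the whole list was used, and 242 of 243 wide TRBS passed that score.

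Fold and p-value together gave whole fragments and background at each summit, within 0.0005 of the deposited −log10 p for 5090 of 5107 peaks and for all 243 wide TRBS. Read totals were not used, so the precision is that of the fragments at each summit. DR4 were searched as AGGTCA, 4 free bases, AGGTCA, with overlapping matches counted and 1 match per start. Genes came from GENCODE M21, with 1 TSS per gene. The promoter was 1000 bp upstream to 100 bp downstream. Shares have 95% Wilson intervals, counts have exact Poisson intervals, and ratios of densities have exact conditional ones. Named genes were those nearest to the 20 highest folds, the 10 greatest widths, TRBS with 3 or more DR4 or a perfect one, and listed genes within 30 kb. Further examples were named after their values were seen. Members and gene lists were chosen with earlier results of these data known. Python 3.11.15, numpy 2.4.6, pandas 2.3.3, scipy 1.17.1 and matplotlib 3.10.9 were used, and the search and the recovery of fragments were tested on simulated data.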

Additional observations from a re-analysis of the deposited data

How the results depend on the processing

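The results were recomputed under 15 alternative settings, which gave 73 values. Of these, 55 stayed within the interval of a share or ratio or within 1.5 times a count, 18 moved more and 0 reversed. Counts and shares of the wide TRBS have no direction, so only the density ratio could have reversed. With a width of at least 1000 bp there were 123 wide TRBS, 25.2% had the summit in the middle of 3 equal parts, and 145 genes were within 30 kb. With at most 1 mismatch, 9.47% of wide TRBS held a DR4, 0.823% held 2 or more, and the density was 19.2 times that of the flanks (95% interval 6.01 to 98.1, from 32 elements against 3 in the flanks, with 9 of the 32 in the Iqch array), against 6.11 times (4.604 to 8.21) with at most 2 mismatches, so the intervals overlap. With at most 3 mismatches these values were 95.1%, 74.9% and 2.58. Without the TRBS that hold 8 or more DR4, an alternative chosen after seeing the data, the density was 4.58 times that of the flanks. Another edge was within 5 kb of 42.4% and within 1 fragment length of 0%. The latter was fixed in advance, since no TRBS of the list lay nearer than 278 bp to another. With all annotated genes, 85.2% were within 30 kb of a TSS, for 502 genes. Protein-coding genes within 10 kb gave 34.98% and 99 genes, and within 100 kb 86.0% and 788 genes. No paired analysis was possible because there was 1 library of each kind and no test between samples. Precision was limited by the single pair of libraries and by small numbers of distant elements. Mappability and pileup shape were not analysed here.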

Other observations

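Sequences of other factors were also counted in the 240 wide TRBS without arrays, as descriptions. CCCNNGGG, the core bound by the EBF factors of adipocytes, occurred at 1.26 per kb within 69 bp of the summit, 0.876 per kb beyond 276 bp and 0.337 per kb in the flanks. GGGCGG, the GC box, occurred at 0.839, 0.793 and 0.292 per kb in the same order. TTGCNNAA, the core of the C/EBP site, occurred at 0.540, 0.627 and 0.369 per kb. TGANTCA, the AP-1 site, occurred at 0.420, 0.325 and 0.275 per kb. The ratios of the distant parts to the flanks were 2.60 (95% interval 2.03 to 3.33) for CCCNNGGG and 2.72 (2.09 to 3.53) for GGGCGG. They were 1.70 (1.29 to 2.22) for TTGCNNAA and 1.18 (0.817 to 1.68) for TGANTCA, the last with an interval that includes 1. In all narrower TRBS the ratios, in this order, were 2.00 (1.62 to 2.45), 3.71 (3.07 to 4.45), 1.23 (0.970 to 1.53) and 1.12 (0.841 to 1.46). Each of these intervals overlaps that of the wide TRBS. At the summit of the wide TRBS, the ratios for TTGCNNAA (1.46, 0.846 to 2.38) and TGANTCA (1.53, 0.812 to 2.66) had intervals that include 1. Midway between the summit and the mirror position, CCCNNGGG, GGGCGG and TTGCNNAA stood at 0.808, 0.849 and 0.566 per kb, from 20, 21 and 14 sites. At the mirror position they stood at 0.970, 1.09 and 0.768 per kb. The GC content was higher and the soft-masked share lower in these places than in the flanks, and their part was not tested.

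The wide TRBS were spread over all 19 autosomes, from 0.0659 per Mb on chromosome 5 to 0.163 per Mb on chromosome 19, with a mean of 0.0987 per Mb.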
